A study of Homo sapiens with 10 samples.

Results

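H3K27ac, the acetylation of histone H3 at lysine 27 that marks active promoters and enhancers, was examined at the loci of 3 members of the MEF2 family, MEF2A, MEF2C and MEF2D. The members are the peaks of the deposited count table whose start lies in one of 3 windows on hg19. The MEF2A window runs on chromosome 15 from 100080000 to 100270000, the MEF2C window on chromosome 5 from 87950000 to 88300000, and the MEF2D window on chromosome 1 from 156420000 to 156490000. They hold 5, 7 and 7 peaks, 19 of the 42067 peaks in the table, and the windows were drawn by position, not by signal. The peaks are lettered here in order of position within each window, from MEF2A-a to MEF2A-e, MEF2C-a to MEF2C-g and MEF2D-a to MEF2D-g. Each peak is a window of 400 bases, so levels of different peaks do not differ by width. They were not corrected for input or for DNA copy number.

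All groups were made in Rh30, a human cell line established from alveolar rhabdomyosarcoma, carrying PAX3-FOXO1-FKBP. PAX3-FOXO1 is the fusion transcription factor of this tumour, and FKBP is the tag through which the degrader dTAG47 directs a protein to destruction. The 4 groups were DMSO, the solvent, and 500 nM dTAG47 for 2 h, 4 h and 24 h, with 2 libraries each. How long DMSO was applied, whether the cells are 1 clone and whether libraries of a group are separate cultures is not in the labels. P-values thus measure a spread that may be technical. The libraries, called A and B in the table, held from 3540104 to 5001652 counts in peaks, and both 24 h libraries (5001652 and 4369471) were deeper than both DMSO libraries (3540104 and 3546020). The median peak held from 48 to 69 counts per library. The level of PAX3-FOXO1 itself is not measured by these counts, and the table names no genes, so the cell type was not checked against marker genes.

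MEF2 proteins are MADS-box transcription factors that bind a short A/T-rich element as dimers. In skeletal muscle they act together with the MyoD family, basic helix-loop-helix factors that bind E-boxes, to switch on genes of differentiated muscle, and class IIa histone deacetylases hold them inactive. MEF2A and MEF2D are made in many tissues, and MEF2C is prominent in muscle, heart and brain. Rhabdomyosarcoma cells express muscle regulators but do not complete muscle differentiation.

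Promoter sequences show which of these elements lie beside the starts of the 3 genes. RefSeq (GRCh38.p14) gives 11 promoters for the 3 genes, each 250 bases before to 50 bases after a start: 3 for MEF2A, 7 for MEF2C and 1 for MEF2D. One per gene is printed, chosen by the number of matches first to the MEF2 consensus, then to CAGCTG and then to the E-box CANNTG. Matches to the MEF2 consensus or CANNTG are in capitals, and both strands were searched. The MEF2A promoter is chr15:99565734-99566033 on the plus strand, the MEF2C promoter chr5:88884487-88884786 on the minus strand and the MEF2D promoter chr1:156490638-156490937 on the minus strand.
MEF2A: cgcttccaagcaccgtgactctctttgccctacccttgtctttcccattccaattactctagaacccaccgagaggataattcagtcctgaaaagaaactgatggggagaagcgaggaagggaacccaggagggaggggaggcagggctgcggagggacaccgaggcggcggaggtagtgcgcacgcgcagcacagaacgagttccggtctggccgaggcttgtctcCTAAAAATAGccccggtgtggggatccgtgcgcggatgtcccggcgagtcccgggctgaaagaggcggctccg
MEF2C: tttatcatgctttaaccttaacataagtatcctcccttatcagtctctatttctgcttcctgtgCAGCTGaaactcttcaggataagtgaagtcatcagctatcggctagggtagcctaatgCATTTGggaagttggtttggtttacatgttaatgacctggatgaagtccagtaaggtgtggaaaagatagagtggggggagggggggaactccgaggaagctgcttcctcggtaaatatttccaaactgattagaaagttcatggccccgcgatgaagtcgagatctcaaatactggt
MEF2D: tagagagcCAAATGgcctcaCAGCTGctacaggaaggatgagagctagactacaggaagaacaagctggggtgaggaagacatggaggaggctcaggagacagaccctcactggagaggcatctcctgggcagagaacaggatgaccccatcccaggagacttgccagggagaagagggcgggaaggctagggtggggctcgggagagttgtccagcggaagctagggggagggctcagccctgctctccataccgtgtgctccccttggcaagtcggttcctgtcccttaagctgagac

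The MEF2A promoter holds the letters CTAAAAATAG, a full match to the MEF2 consensus, 23 to 14 bases before the start. Of 35116 RefSeq promoters of the same length 201 (0.572%) hold such a match, and none of the other 10 promoters of the 3 genes does. The MEF2C and MEF2D promoters shown each hold CAGCTG, one of the forms of the E-box CANNTG, 186 to 181 and 230 to 225 bases before the start. CAGCTG is present in 17.9% of all promoters and CANNTG in 68.7%, which were not picked by matches. The MEF2A and MEF2C promoters shown were picked by such matches from 3 and 7, while MEF2D has 1. Some other MEF2C promoters lack CAGCTG. The paired-domain core GTCACGC was not found in any of the 11 promoters and is present in 2.52% of all. A match is a description of letters, not of a bound factor. The peaks are on hg19 and the promoters on GRCh38.p14, so which peak covers which promoter, exon or intron was not determined here. Peaks and locus sums are named for their window, and a peak in it may lie outside that gene or at another one. RefSeq also lists the antisense RNAs MEF2C-AS1 and MEF2C-AS2 overlapping MEF2C, and acetylation carries no strand.

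Each locus had 1 peak that stood above the rest. Levels are given as CPM, the counts of a peak relative to the total in its library, scaled between libraries by TMM. MEF2A-c, on chromosome 15 at 100106169 to 100106569, measured 86.3 and 102.8 CPM in DMSO, 91.9 and 115.2 after 2 h, 90.3 and 96.5 after 4 h, then 106.8 and 104.2 after 24 h. It was stronger than 97.8% of all tested peaks and held from 68.3% to 73% of the counts of its locus in every library. MEF2C-b, on chromosome 5 at 87970360 to 87970760, measured 66 and 73.6 CPM in DMSO, 68 and 72.5 after 2 h, 69.5 and 68.5 after 4 h, then 67.9 and 74.8 after 24 h. It lay at the 93.8th percentile of level and held from 42.9% to 49.6% of its locus. MEF2D-e, on chromosome 1 at 156470760 to 156471160, measured 53.5 and 52.3 CPM in DMSO, 51.2 and 54.2 after 2 h, 48.5 and 54.3 after 4 h, then 45.4 and 49.8 after 24 h. It lay at the 88th percentile and held from 25.1% to 31.2% of its locus. The order of these peaks, MEF2A-c over MEF2C-b over MEF2D-e, was the same in each of the 8 libraries, and their ranges over libraries did not overlap. This order is of levels not corrected for input.

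The other 16 peaks were weaker. In the MEF2A locus they averaged from 5 to 17.8 CPM over all libraries, with MEF2A-d, at 100257343 and 150774 bases past the end of MEF2A-c, the strongest of them. In the MEF2C locus the averages ran from 3.94 CPM at MEF2C-f to 24.6 at MEF2C-e. In the MEF2D locus signal was spread more evenly. MEF2D-a averaged 36.9 CPM, MEF2D-f 32.5, MEF2D-g 17.7, MEF2D-c 16.4, MEF2D-d 14.1 and MEF2D-b 7.93. MEF2C-f lay at the 3.16th percentile of level and MEF2A-b at the 8.78th, so counting error is largest there.

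**Figure D1:**
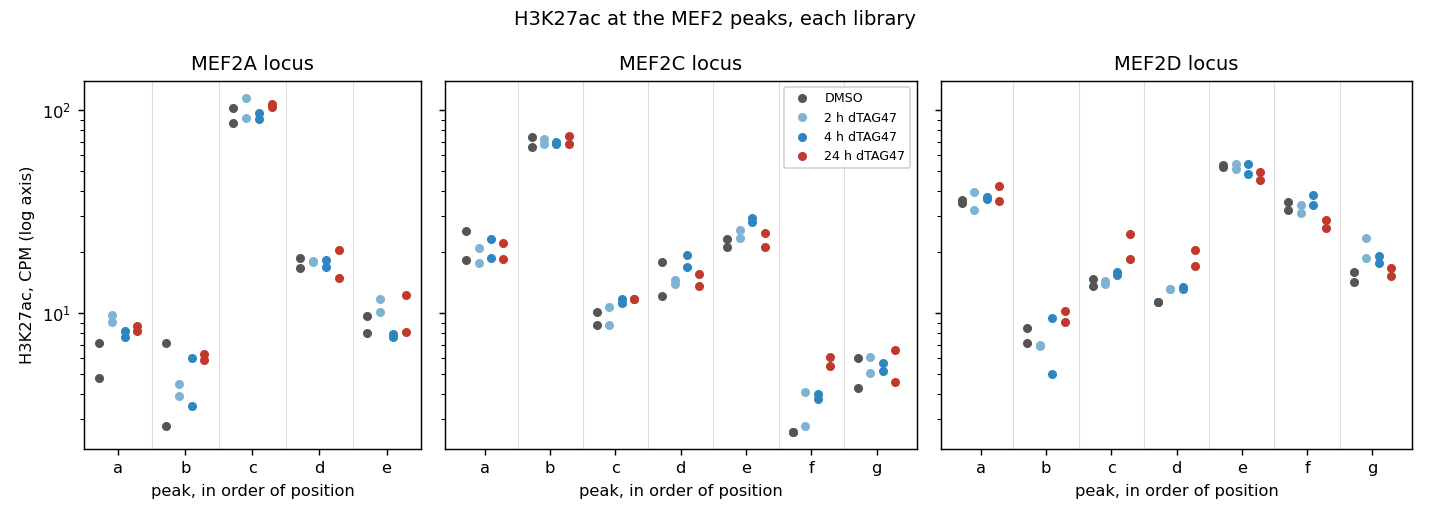
H3K27ac in CPM (log axis) at the 19 peaks of the MEF2A, MEF2C and MEF2D loci, in order of position, with 1 point per library and 2 libraries for each of DMSO and 2 h, 4 h and 24 h of dTAG47. MEF2A-c, MEF2C-b and MEF2D-e are the strongest peak of each locus in all 8 libraries, and the 24 h points of MEF2C-f, MEF2D-c and MEF2D-d lie above the points of the other groups.

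The comparisons with DMSO ask where acetylation at these loci changes once the fusion's degrader is added. At 2 h and 4 h no MEF2 peak passed the test. At 24 h MEF2D-c and MEF2D-d rose and 0 peaks fell. A weak peak, MEF2C-f, was called higher too, but its entry into the test depended on the treated libraries. The strongest peak of each locus was not called at any time. All 19 peaks passed the filter on low counts. Only MEF2C-f was under its minimum of 10 counts in a library of median depth (2.6 CPM) in some library. With 9 counts in each DMSO library it fell just short there and was tested only because of its treated libraries, where it was higher, so its call is given as a description. Calls are edgeR quasi-likelihood tests over 41791 peaks with Benjamini-Hochberg adjusted p under 0.05. Across all tested peaks 3.46% were called higher and 4.88% lower at 24 h, 8.35% in all. Among the 39469 peaks at or above the minimum in every library 3.34% were called higher at 24 h, and among the 18 such members 2 were. The 2 are MEF2D-c and MEF2D-d, which lie 494 bases apart and may not be independent of each other. At 2 h 0.194% of all peaks rose and 1.03% fell, 1.23% in all. After 4 h 0.567% rose and 1.67% fell, 2.23% in all. With such shares 0 calls among 19 peaks is near the background. An unadjusted edgeR p under 0.05 was reached by 2 members at 2 h (11.1% of all peaks), by 1 after 4 h (13.1%) and by 4 after 24 h (21%). The DESeq2 Wald test called fewer peaks of any kind, 0.0574% of all tested peaks at 2 h, 0.196% after 4 h and 1.16% after 24 h, and 0 members at each time. An unadjusted DESeq2 p under 0.05 was reached by 0, 0 and 3 members at these times, and by 2.8%, 3.86% and 8.13% of all peaks. The median log2 change of the members was 0.03 after 2 h, 0.09 after 4 h and 0.15 after 24 h, against 0.005, 0.004 and 0.001 over all tested peaks. These comparisons share the DMSO libraries.

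MEF2D-c and MEF2D-d are neighbours on chromosome 1, at 156459382 to 156459782 and 156460276 to 156460676, with 494 bases between them. MEF2D-c measured 18.6 and 24.6 CPM at 24 h, against 14.8 and 13.6 in DMSO, and both 24 h libraries lay above both DMSO libraries. Its means were 21.6 ± 4.2 CPM at 24 h and 14.2 ± 0.8 CPM in DMSO (SD, n = 2 each), a log2 change of 0.59 (SE 0.18, 95% interval 0.23 to 0.95, edgeR adjusted p = 0.0224). At 2 h it measured 14 and 14.5 CPM and at 4 h 15.5 and 15.9 CPM, within or just above the DMSO range, with log2 changes of 0.01 and 0.14. MEF2D-d measured 20.4 and 17.1 CPM at 24 h, against 11.4 and 11.4 CPM in DMSO, again without overlap. The log2 change was 0.73 (SE 0.20, 95% interval 0.34 to 1.11, edgeR adjusted p = 0.0073). At 2 h it measured 13.2 and 13.2 CPM and at 4 h 13.1 and 13.4 CPM, all above DMSO, with a log2 change of 0.22 at each time that was not called (edgeR adjusted p = 0.791 and 0.74).

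Both calls were lost in some edgeR fits that left out 1 library at a time. Such fits leave 1 library in a group, so any peak is harder to call. The share of all peaks still called in them is not given here. Leaving out a DMSO library hardly moved the size for MEF2D-d, while leaving out a 24 h library moved both sizes. Without DMSO library A the log2 change of MEF2D-c was 0.65 and its edgeR adjusted p = 0.0975. Without DMSO library B they were 0.53 and an edgeR adjusted p = 0.198, and without 24 h library B 0.39 and an edgeR adjusted p = 0.374. MEF2D-c stayed called without 24 h library A (0.79, edgeR adjusted p = 0.011). For MEF2D-d the log2 change was 0.73 without DMSO library A (edgeR adjusted p = 0.0775) and 0.72 without DMSO library B (edgeR adjusted p = 0.0806). It was 0.58 without 24 h library A (edgeR adjusted p = 0.177), and 0.84 and still called without 24 h library B (edgeR adjusted p = 0.0109). DESeq2 gave adjusted p = 0.476 for MEF2D-c and 0.332 for MEF2D-d, with log2 changes of 0.60 and 0.72. In every one of these fits the change kept its sign.

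MEF2C-f, on chromosome 5 at 88249761 to 88250161, was the weakest of the 19 peaks. It held 28 and 27 counts at 24 h, against 9 and 9 in DMSO. In CPM these were 5.5 and 6.1 at 24 h and 2.6 and 2.6 in DMSO, with no overlap. The log2 change of 1.18 (SE 0.37, 95% interval 0.44 to 1.91, edgeR adjusted p = 0.028) had the widest interval of the members at 24 h. These values are a description, because MEF2C-f was tested only because of its treated libraries, where it was higher. At 2 h it measured 4.1 and 2.8 CPM and at 4 h 3.8 and 4 CPM, with log2 changes of 0.39 and 0.60 that were not called. The call was lost on leaving out any 1 of the 4 libraries: the edgeR adjusted p was 0.162 and 0.165 without DMSO library A and B, and 0.0986 and 0.154 without 24 h library A and B. DESeq2 gave an unadjusted p = 0.0361 and no adjusted p. Both 24 h libraries were also deeper than both DMSO libraries, and the part of depth in these gains was not tested.

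**Figure D2:**
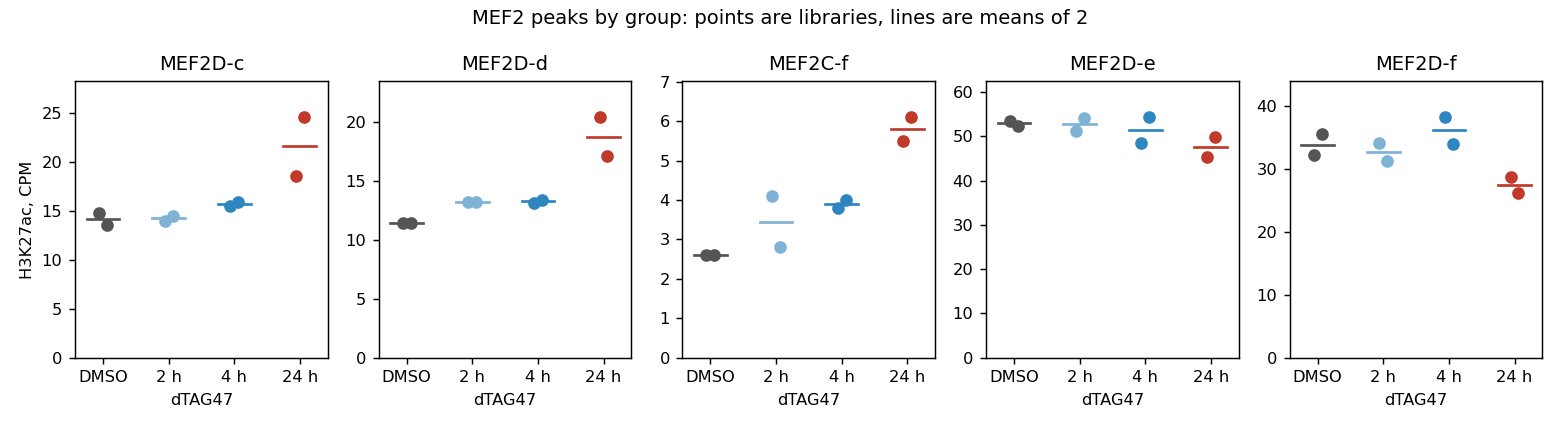
H3K27ac in CPM at 5 peaks, with points for single libraries and lines for means of 2, by time of dTAG47. MEF2D-c, MEF2D-d and MEF2C-f were called higher at 24 h than in DMSO. MEF2C-f was tested only because of its treated libraries, so its call is a description. MEF2D-e and MEF2D-f were not called and lay lower at 24 h than in DMSO.

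MEF2D-c was also higher at 24 h than at 2 h in the direct comparison of the treated groups. The log2 change of 24 h over 2 h was 0.58 (SE 0.17, 95% interval 0.24 to 0.92, edgeR adjusted p = 0.0311). This was the only call among the 19 members in comparisons between treated groups, where 1.69% of all peaks were called higher at 24 h than at 2 h and 2.49% lower (4.18% in all). It was lost without 24 h library B (0.38, edgeR adjusted p = 0.428), without 2 h library A (0.56, edgeR adjusted p = 0.121) and without 2 h library B (0.61, edgeR adjusted p = 0.173). DESeq2, which called 0.146% of all peaks, did not call it either (0.59, DESeq2 adjusted p = 0.7). For 24 h over 2 h DESeq2 gave no adjusted p to 46.5% of all peaks and to 7 members. An unadjusted edgeR p under 0.05 was reached there by 4 members and 17.6% of all peaks. For DESeq2 these were 1 member and 5.02% of all peaks. MEF2D-d was 0.51 log2 units higher at 24 h than at 2 h (95% interval 0.15 to 0.87, edgeR adjusted p = 0.0868). Between 24 h and 4 h the log2 changes were 0.45 for MEF2D-c, 0.51 for MEF2D-d and 0.58 for MEF2C-f, with edgeR adjusted p = 0.193, 0.155 and 0.442. In that comparison edgeR called 0 members, and 0.438% of all peaks higher and 0.68% lower, 1.12% in all. An unadjusted edgeR p under 0.05 was reached by 5 members and 13.5% of all peaks. DESeq2 called 0 members and 0.00718% of all peaks, and 1 member and 3.03% of all peaks had an unadjusted DESeq2 p under 0.05. Between 4 h and 2 h edgeR called 0 of all peaks (0%), with 1 member and 6.92% of all peaks at an unadjusted p under 0.05. DESeq2 also called 0 peaks, with 0 members and 0.73% of all peaks at such a p.

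The strongest peaks had the narrowest intervals. After 24 h the log2 change came to 0.16 for MEF2A-c (95% interval -0.01 to 0.32), 0.03 for MEF2C-b (-0.16 to 0.21) and -0.16 for MEF2D-e (-0.37 to 0.06). At 2 h the intervals ran from -0.02 to 0.31, -0.18 to 0.20 and -0.22 to 0.21. At 4 h they ran from -0.19 to 0.16, -0.21 to 0.18 and -0.26 to 0.18. A change of 0.5 log2 units or more in these peaks thus lay outside each of the intervals. For weak peaks such as MEF2A-b (-0.32 to 0.93 at 24 h) or MEF2C-g (-0.52 to 0.73) it lay inside. The intervals rest mostly on the spread shared by all peaks, which may be technical, so they may be too narrow.

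Beside the called peaks, 4 members had an unadjusted edgeR p under 0.05 at one time. MEF2A-a, at 100087284 to 100087684, measured 9.1 and 9.8 CPM at 2 h, against 4.8 and 7.1 in DMSO, a log2 change of 0.67 (SE 0.28, edgeR adjusted p = 0.295). With 7.6 and 8.2 CPM after 4 h and 8.7 and 8.2 after 24 h, every treated library lay above both DMSO libraries. MEF2D-g, at 156475260 to 156475660, measured 18.7 and 23.5 CPM at 2 h, against 15.9 and 14.2 in DMSO (log2 change 0.50, SE 0.18, edgeR adjusted p = 0.185). After 4 h MEF2D-g measured 17.7 and 19.1 CPM, also above both DMSO libraries (log2 change 0.29, edgeR adjusted p = 0.547), and after 24 h 15.3 and 16.8 CPM, which overlaps with DMSO. MEF2C-e, at 88185209 to 88185609, measured 29.4 and 28.3 CPM at 4 h, against 21.1 and 23.3 in DMSO (log2 change 0.38, SE 0.16, edgeR adjusted p = 0.229), and 24.8 and 21.2 CPM at 24 h. MEF2D-f, at 156474471 to 156474871, measured 28.7 and 26.2 CPM at 24 h, against 32.2 and 35.5 in DMSO (log2 change -0.30, SE 0.14, edgeR adjusted p = 0.174). In all 4 cases the treated libraries did not overlap with DMSO, yet none passed the test over all peaks.

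**Figure D3:**
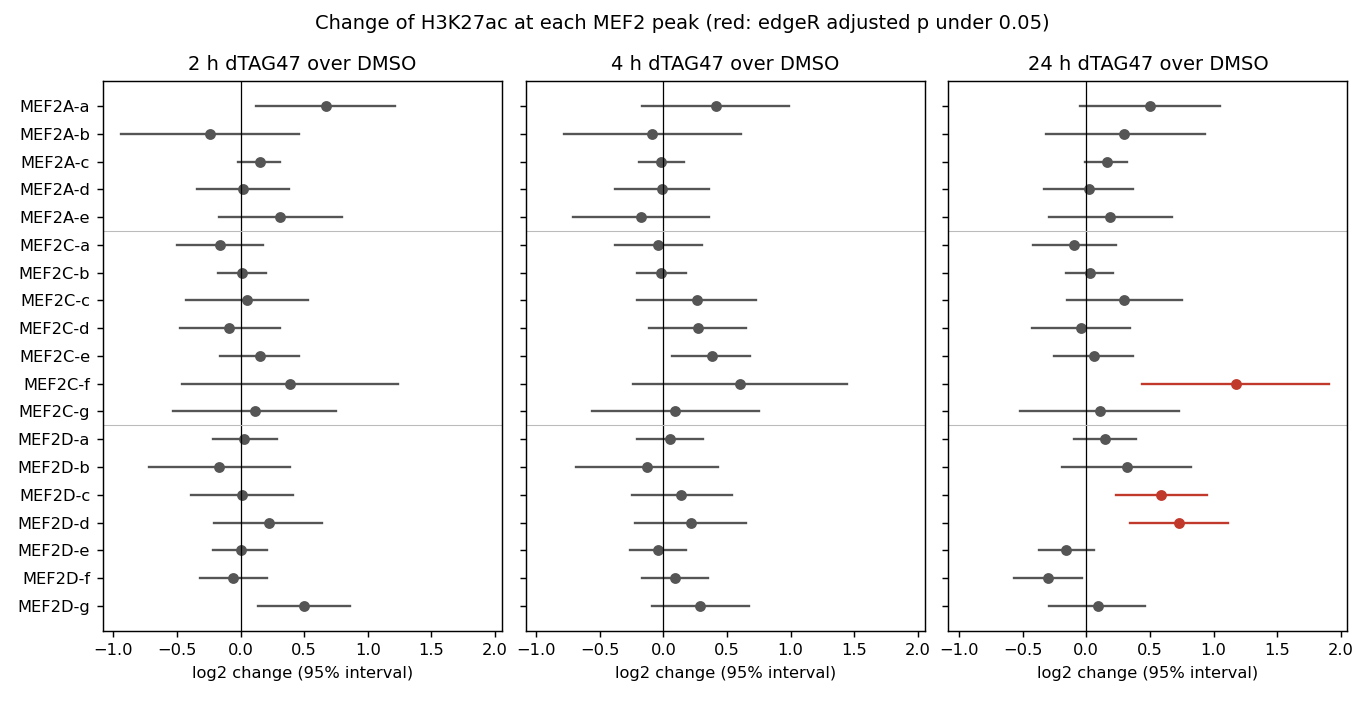
Log2 change of H3K27ac over DMSO at each of the 19 peaks after 2 h, 4 h and 24 h of dTAG47, with 95% intervals from the edgeR fit; red marks an adjusted p under 0.05. Red points occur at 24 h only, at MEF2C-f, MEF2D-c and MEF2D-d. MEF2C-f was tested only because of its treated libraries, so its call is a description. MEF2A-c, MEF2C-b and MEF2D-e have the shortest bars of their loci.

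Summed over its peaks, no locus was called against DMSO at any time by edgeR or DESeq2. In edgeR 1 sum, that of MEF2A, had an unadjusted p under 0.05 at 2 h (95% interval 0.03 to 0.30) and again at 24 h. The share of all sums with such a p is not given here. The MEF2A sum measured 150.6 and 145.6 CPM at 24 h, against 122.1 and 141.2 in DMSO, with both 24 h libraries above DMSO. Its log2 change was 0.17 (SE 0.07, 95% interval 0.04 to 0.30, edgeR adjusted p = 0.0934 among 26138 sums). It was called when total counts replaced TMM (0.19, adjusted p = 0.0482) and without DMSO library B (0.28, adjusted p = 0.0275), and was 0.07 without DMSO library A (adjusted p = 0.753). The MEF2C sum measured 146.9 and 158.5 CPM at 24 h, against 132.8 and 158.2 in DMSO, which overlap (log2 change 0.07, 95% interval -0.06 to 0.20, edgeR adjusted p = 0.626). The MEF2D sum measured 181.2 and 179.5 CPM at 24 h, against 170.9 and 169.5 in DMSO, which do not overlap (log2 change 0.08, 95% interval -0.04 to 0.20, edgeR adjusted p = 0.463). At 2 h and 4 h the changes of the 3 sums ran from 0.00 to 0.16, with edgeR adjusted p from 0.275 to 0.994. Of all sums, 9.53% were called at 24 h in either direction, 2.97% at 4 h and 2% at 2 h.

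The share of the MEF2D counts held by its peaks is given as a description. Peaks c and d held 21.6% and 23.2% of the MEF2D counts in the 24 h libraries, against 15.3% and 14.7% in DMSO, and from 15.1% to 16.4% at 2 h and 4 h. Peaks e and f, which begin 10084 bases past the end of peak d, held 40.9% and 42.3% at 24 h, against 50% and 51.6% in DMSO, and from 46.6% to 50.1% at 2 h and 4 h. The 24 h shares did not overlap with those of any other group. These pairs were chosen after their values were seen, and the shares carry no test. Whether a peak's change differs from that of the other peaks of its locus was tested with edgeR's diffSpliceDGE over 23849 peaks. At 24 h 0 of the 19 members were called and 5 had an unadjusted p under 0.05, where 1.43% of all peaks were called and 9.88% had such a p. The 5 were MEF2D-d (0.65 log2 units above the rest of its locus, adjusted p = 0.0633), MEF2C-f (1.11, 0.118), MEF2D-c (0.51, 0.159), MEF2D-f (-0.38, 0.184) and MEF2D-e (-0.23, 0.436). At 2 h 0 members and 0.0294% of all peaks were called, and 1 member and 3.96% of all peaks had an unadjusted p under 0.05. At 4 h 0 members and 0.117% of all peaks were called, and 0 members and 5.35% of all peaks had such a p. DESeq2 has no such test.

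**Figure D4:**
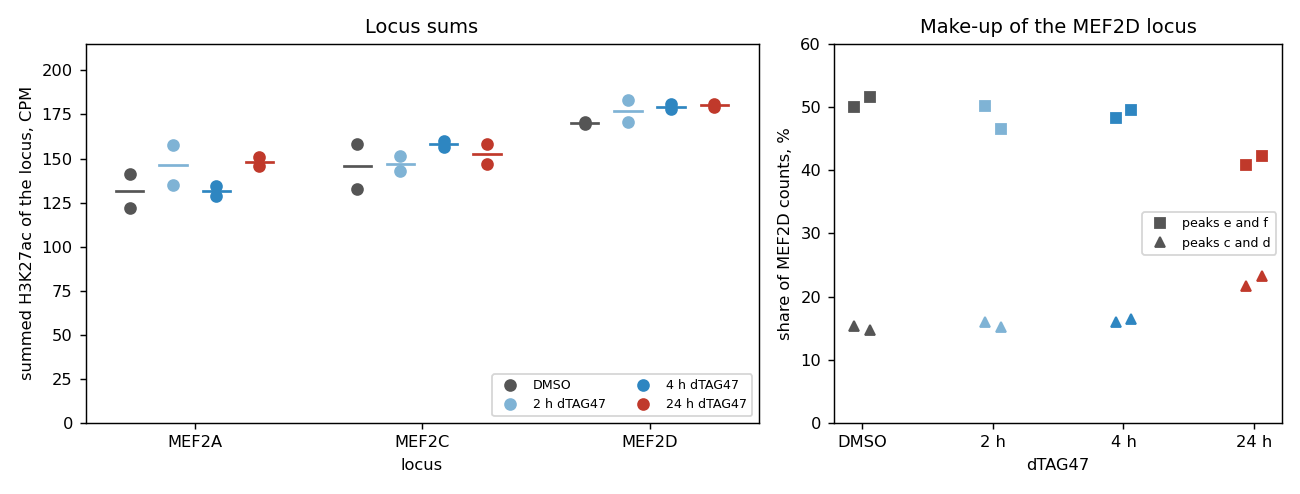
Left, the summed H3K27ac of each locus in CPM by group, with points for libraries and lines for means of 2. Right, the share of MEF2D counts in peaks e and f (squares) and in peaks c and d (triangles), in percent: the 24 h points of c and d, 21.6% and 23.2%, lie above all other groups, and those of e and f, 40.9% and 42.3%, lie below.

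Peaks outside the windows by up to 500 kb were set beside the loci. Around MEF2A, 5 of 30 tested neighbours rose at 24 h and 1 fell, with a median log2 change of 0.09, against 0.19 for the MEF2A peaks. Around MEF2D, 1 of 47 neighbours rose and 0 fell, with a median of -0.01, against 0.15 for the MEF2D peaks. Around MEF2C there were 6 neighbours, of which 0 were called, with medians of 0.06 for these and 0.06 for the MEF2C peaks. At 2 h 0 of the neighbours were called and at 4 h 1, higher and near MEF2A. Of all tested peaks 3.46% were called higher and 4.88% lower at 24 h. These shares were 0.567% and 1.67% at 4 h, and 0.194% and 1.03% at 2 h. Locus and neighbours were not tested against each other.

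The peaks whose log2 CPM over the 8 libraries was most like each locus sum were sought among 20808 peaks of at least median level that lay over 1 Mb from the 3 windows. For MEF2A the closest (Pearson r = 0.968) began at 105452117 on chromosome 14, followed by one at 31191395 on chromosome 16 (0.967) and one at 44586176 on chromosome 11 (0.954). For MEF2C the closest began at 10979491 on chromosome 7 (0.98), and the next both lay on chromosome 14, with starts 103026586 (0.955) and 102606195 (0.934). For MEF2D the starts were 3447590 on chromosome 1 (0.981), 19899882 on chromosome 22 (0.977) and 33978181 on chromosome 19 (0.959). These are the highest of many values over 8 libraries that share groups and scaling, and they are given as a description.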

How the data were processed

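H3K27ac ChIP-seq was measured in 8 libraries of Rh30 cells. The deposited table holds raw counts of reads in 42067 peak windows, per the file headers and the values, over 1 peak set common to all libraries. The submitters' processing notes list MACS2, DiffBind, DESeq2, Bowtie2 and Trimmomatic 0.32 among the authors' tools, and hg19 and dm3 as builds, without roles or order. Peak calling settings and the treatment of duplicates are not stated. No spike-in reads were used here, so a change common to all peaks cannot be seen after scaling. Counts lie within peaks, so total sequencing depth is unknown. The file does not say if positions are 0-based or 1-based, which could shift starts by 1 base. Input libraries were not analysed here.

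Columns carry the letters A and B, which the labels do not, and were assigned to groups by name; 0 columns of per-sample values were left without a group. The 2 libraries of each group differed by more than sampling noise (chi-square per degree of freedom from 1.06 to 1.21). Tests used edgeR 4.0.16 (R 4.3.3) on these counts: filterByExpr (minimum count 10, minimum total 15) kept 41791 peaks and left out 276, libraries were scaled by TMM, and 1 robust quasi-likelihood model was fitted to the 4 groups. The prior carries 182 degrees of freedom (median over peaks), so errors rest mostly on the spread shared by all peaks (biological coefficient of variation 3.29%). Errors of log2 changes come from the F statistic. For locus sums, the peaks of each window were added and all other peaks were stitched within 12.5 kb, giving 26138 sums. DESeq2 1.42.0 on the same peaks was an alternative; its shares count peaks to which it gave no adjusted p as not called. The scripts were tested on simulated data.

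Values in every library are given for the strongest peak and the peak with the lowest p of each locus and for each called peak; MEF2A-a, MEF2D-g, MEF2C-e and MEF2D-f are described as having an unadjusted p under 0.05 against DMSO, MEF2D-g, MEF2C-e and MEF2D-f having been added after their values were seen. The members, rules and lists were chosen with earlier results of these data known. A list of MEF2 partners and targets could not be located without an hg19 annotation and was not analysed. Promoters come from RefSeq, where all 3 genes were matched by symbol.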

Additional observations from a re-analysis of the deposited data

Results flagged for a closer look

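MEF2D-c is listed because its change differed between times by a direct test. Its acetylation was 0.58 log2 units higher at 24 h than at 2 h (edgeR adjusted p = 0.0311), with both 24 h libraries (18.6 and 24.6 CPM) above both 2 h libraries (14 and 14.5 CPM). The size of the change rests on 24 h library B: without it the value was 0.38 (adjusted p = 0.428).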

How the results depend on the processing

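The counts of called peaks at 24 h depended most on the processing. Against DMSO, DESeq2 called 0 members higher in place of 3, and calls were also lost on leaving out 1 library. The 3 include MEF2C-f, which was tested only because of its treated libraries and has no DESeq2 adjusted p there. The other 2 are MEF2D-c and MEF2D-d. Against 2 h, DESeq2 called 0 in place of 1, and leaving out 1 library gave 0 to 1. DESeq2 size factors in edgeR, total counts, no filter and the fit of the 2 groups compared changed none of these counts. The 24 h change of the MEF2A sum was 0.19 and called with total counts, and ran from 0.07 to 0.28 on leaving out 1 library. Values near 0 that were not called changed sign when 1 library was left out. The MEF2C sum ran from -0.10 to 0.15 at 2 h and -0.05 to 0.20 at 24 h. The MEF2A sum ran from -0.10 to 0.11 at 4 h. MEF2C-b ran from -0.06 to 0.09 at 2 h, -0.09 to 0.06 at 4 h and -0.05 to 0.11 at 24 h. MEF2A-c ran from -0.04 to 0.28 at 2 h and -0.14 to 0.12 at 4 h. MEF2D-c ran from -0.05 to 0.07 at 2 h. MEF2D-e ran from -0.05 to 0.03 at 2 h and -0.12 to 0.04 at 4 h. The cause was not tested. A lone library was assumed to vary like the other groups. The column letters A and B were fitted as a replicate block, an alternative chosen after seeing the data, although the labels do not tie them to replicate numbers. The block kept the counts at 3 against DMSO, MEF2C-f included, and 1 against 2 h, and changed no call. The differences of library B from library A correlated by -0.03 to 0.06 between groups over 20896 peaks. Libraries of a group differed little beyond sampling noise (chi-square per degree of freedom from 1.06 to 1.21), so this check could hardly show a shared batch. Whether the letters mark pairs was not determined. Total counts moved the median log2 change of all peaks to 0.023 at 24 h. MEF2C-f has no DESeq2 adjusted p against DMSO or for 24 h over 2 h and, in the fit of 2 h and DMSO alone, no value. At 9 counts per DMSO library, counting error limits MEF2C-f.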
